A study of Mus musculus with 8 samples.

Results

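Chromosome 8 carried far more N6-methyladenine (6mA) peaks per megabase than any other autosome in mouse embryonic stem cells grown with folate, and the peaks were spread along its whole length. In cells grown without folate the chromosome was also the densest autosome, by a smaller margin and less evenly. In embryo brain it stood closer to the other autosomes, at 1.03 to 1.27 times their median density and ranks of 1 to 9 among 19 autosomes. Its brain peaks were densest in a stretch at 19.5 to 21 Mb beside the alpha-defensin genes. The chromosome was chosen by its measured FA4 peak density, and the members are all peaks that the deposited lists place on chromosome 8, taken once per peak name, which gave 9184 of 90798 peaks. Of these, 3602 of 38699 peaks came from cells without folate (FA0) and 3774 of 20186 from cells with folate (FA4). The brain lists gave 1808, of which replicates 1, 2 and 3 held 319, 326 and 387 with neural tube defects (NTD) and 178, 347 and 251 in normal brains (CON).

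The cells are of the Sv/129 mouse embryonic stem line, divided at random between folate-free medium (FA0) and the same medium with 4 mg/L of folate added (FA4), with 1 list for each condition. The NTD embryos came from dams on a low-folate diet that were injected with the folate antagonist methotrexate at 1.5 mg/kg on gestational day 7.5, and the treatment given for CON is normal saline. Embryos were examined at embryonic days 9.5 to 10.5, and each brain group has 3 immunoprecipitations, all called against 1 input of their group. The labels do not say whether these come from separate embryos or pools, or what diet the CON dams had, so a p-value measures the spread between immunoprecipitations, which may be technical, and diet, drug and selection of affected embryos cannot be told apart.

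6mA is a methyl group on the adenine base. It is common in bacterial DNA and very rare in that of mammals, where its extent is debated, and antibody enrichment reports short stretches of DNA, not single bases. Mouse chromosome 8 is an acrocentric autosome with large gene-poor stretches around long neuronal genes, a defensin cluster near its centromere and gene-dense blocks in its middle and distal parts. Mouse embryonic stem cell cultures are known for gaining an extra copy of this chromosome, and such a gain would raise the DNA of all its stretches alike. Read totals were not used here, so copy number itself was not tested.

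RefSeq tables of GRCm38.p6, the assembly of the mm10 build that the processing notes name, gave promoter windows from 250 bases before to 50 bases after the start of 1442 genes of the chromosome. A peak touched 16 of these windows in FA0 and 20 in FA4, or 1.11% and 1.39%, against 0.621% and 0.174% on the other autosomes. Peaks of any kind also covered more of this chromosome, 0.940% in FA0 and 1.01% in FA4, where the other autosomes had medians of 0.473% and 0.240%. The window shares are therefore not a measure of promoters alone. The 4 upstream sequences are printed because they show what lies under such peaks, and they were picked after their values were seen. Each is the 250 bases before the start, 5′ to 3′ on the gene's strand, with the bases under a peak in capitals.
Gm51571 promoter, chr8:55114679-55114928, plus strand: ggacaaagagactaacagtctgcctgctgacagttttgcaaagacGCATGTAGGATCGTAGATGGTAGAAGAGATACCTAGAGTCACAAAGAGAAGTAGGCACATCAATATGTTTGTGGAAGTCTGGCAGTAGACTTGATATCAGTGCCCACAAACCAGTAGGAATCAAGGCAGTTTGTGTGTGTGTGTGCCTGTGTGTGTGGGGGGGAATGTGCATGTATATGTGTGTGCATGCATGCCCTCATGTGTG
Gm35542 promoter, chr8:89219228-89219477, plus strand: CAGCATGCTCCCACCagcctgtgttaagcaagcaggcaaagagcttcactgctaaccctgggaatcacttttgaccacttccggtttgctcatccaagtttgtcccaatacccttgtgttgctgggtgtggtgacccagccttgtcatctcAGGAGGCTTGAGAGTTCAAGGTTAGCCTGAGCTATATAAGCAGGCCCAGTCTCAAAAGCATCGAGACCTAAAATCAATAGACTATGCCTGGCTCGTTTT
Glg1 promoter, chr8:111259211-111259460, minus strand: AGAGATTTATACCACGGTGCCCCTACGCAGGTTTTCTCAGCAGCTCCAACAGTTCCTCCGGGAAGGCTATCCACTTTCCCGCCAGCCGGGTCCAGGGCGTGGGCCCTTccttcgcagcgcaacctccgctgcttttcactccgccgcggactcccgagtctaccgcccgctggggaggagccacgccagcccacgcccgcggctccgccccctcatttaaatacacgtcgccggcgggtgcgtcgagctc
F10 promoter, chr8:13037058-13037307, plus strand: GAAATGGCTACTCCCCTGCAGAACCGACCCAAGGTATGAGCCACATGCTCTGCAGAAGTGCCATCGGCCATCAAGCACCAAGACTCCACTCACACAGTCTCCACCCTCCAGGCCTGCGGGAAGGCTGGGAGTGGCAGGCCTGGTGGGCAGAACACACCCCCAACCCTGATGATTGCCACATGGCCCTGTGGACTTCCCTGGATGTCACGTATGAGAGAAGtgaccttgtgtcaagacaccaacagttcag
At Gm51571, an uncharacterised gene, the FA4 peak had 21 tags, a fold of 3.19 and a q of 0.0151, with a background of 5.89 tags. The window of Gm35542 was 1 of 2 touched in both conditions, by neighbouring peaks of 6 tags in FA0 and 7 in FA4 that do not overlap. Glg1, which encodes a Golgi glycoprotein, had an FA4 peak of 8 tags, and F10, which encodes coagulation factor X, an FA0 peak of 9 tags, and each of these had a q above 0.5. Adenine and thymine made up a median of 50.4% of the 16 windows with an FA0 peak and 54.4% of the 20 with an FA4 peak, against 46.4% of the 1408 windows with neither. The quartiles overlapped, at 48.0% to 55.1%, 50.4% to 55.3% and 38.4% to 52.8%. In some windows only a few bases lay under the peak, and the difference was not tested.

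In FA4 the density on chromosome 8 was 29.9 peaks per assembled megabase, counted after the leading 3 Mb of unassembled sequence. The other 18 autosomes had a median of 7.70 and lay between 0.36 of that median on chromosome 7 and 1.41 on chromosome 19, while chromosome 8 stood at 3.88 (Wilson 95% interval 3.77 to 3.99, counting error only). In FA0 its density was 28.5 per megabase against a median of 15.2, a relative density of 1.88 (1.82 to 1.94), and the next autosome, chromosome 6, stood at 1.44. Peaks per megabase on chromosome 8 were thus nearly the same in both conditions, and the difference in relative density came with the lower level of the other autosomes in the shorter FA4 list. Scaled to the peaks of those autosomes, chromosome 8 had 2.25 times as many peaks in FA4 as in FA0 (2.14 to 2.36), and the other autosomes lay between 0.398 on chromosome 7 and 1.49 on chromosome 19. These values chose the chromosome and are a description. With 1 list for each condition no test between the conditions can be made.

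**Figure D1:**
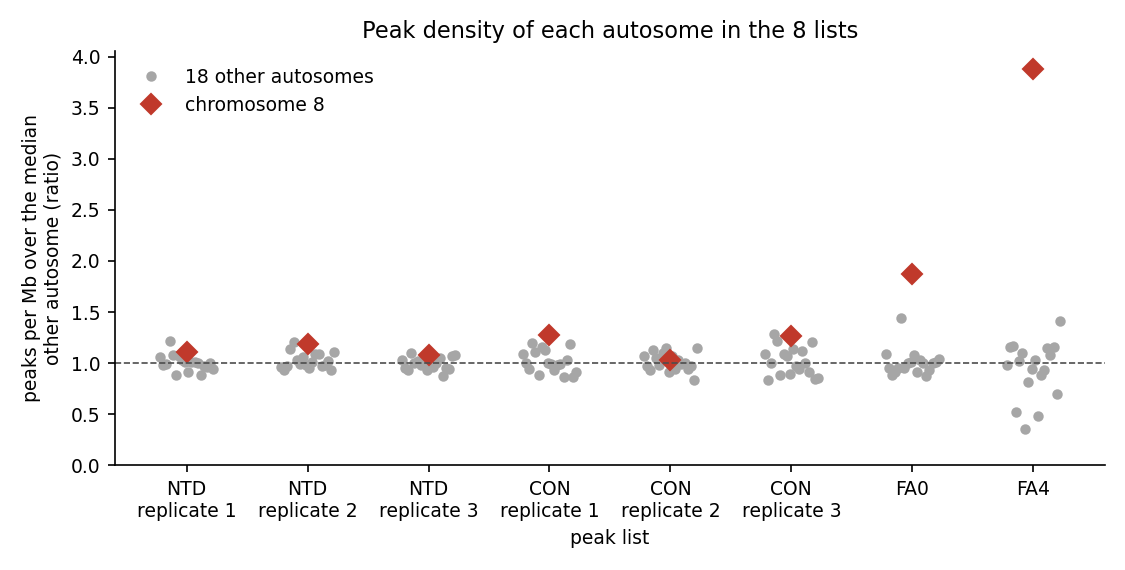
Relative density of each autosome in the 8 peak lists, as peaks per assembled megabase over the median of the 18 autosomes other than chromosome 8. Diamonds show chromosome 8 and dots the other autosomes. Chromosome 8 stands at 3.88 in FA4, at 1.88 in FA0 and between 1.03 and 1.27 in the 6 brain lists.

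Along the chromosome, which was cut into 26 bins of 5 Mb with shorter bins at the ends, the FA4 excess was present everywhere. FA4 density ran from 24.0 peaks per megabase at 50 to 55 Mb to 38.7 in the bin from 125 Mb to the end, with a median of 30.1. The next highest bins were 25 to 30 Mb at 35.4 and 75 to 80 Mb at 33.8, and the next lowest were 120 to 125 Mb at 25.4 and 3 to 5 Mb at 25.5. All 26 bins lay above 11.4, the 95th percentile of the 470 bins of the other autosomes, and 1 of those 470 exceeded the lowest bin of chromosome 8. Cut into 3 equal lengths, the chromosome held 1289, 1237 and 1248 FA4 peaks from the centromere side to the distal end.

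FA0 density varied more, from 10.6 peaks per megabase at 5 to 10 Mb to 38.6 at 105 to 110 Mb, with a median of 29.6. Of the 26 bins, 19 lay above 24.1, the 95th percentile of the other bins, and 24 above their median. The exceptions were 5 to 10 Mb, at 0.70 of the typical bin of other autosomes, and 125 Mb to the end, at 0.94. The 3 equal lengths held 1009, 1360 and 1233 FA0 peaks. Across the 26 bins, which share a sequence but come from separate libraries, FA0 and FA4 densities had a Pearson r of -0.054 and a Spearman rho of 0.13. Over the 470 other bins the same correlation was 0.32 (rho 0.25).

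**Figure D2:**
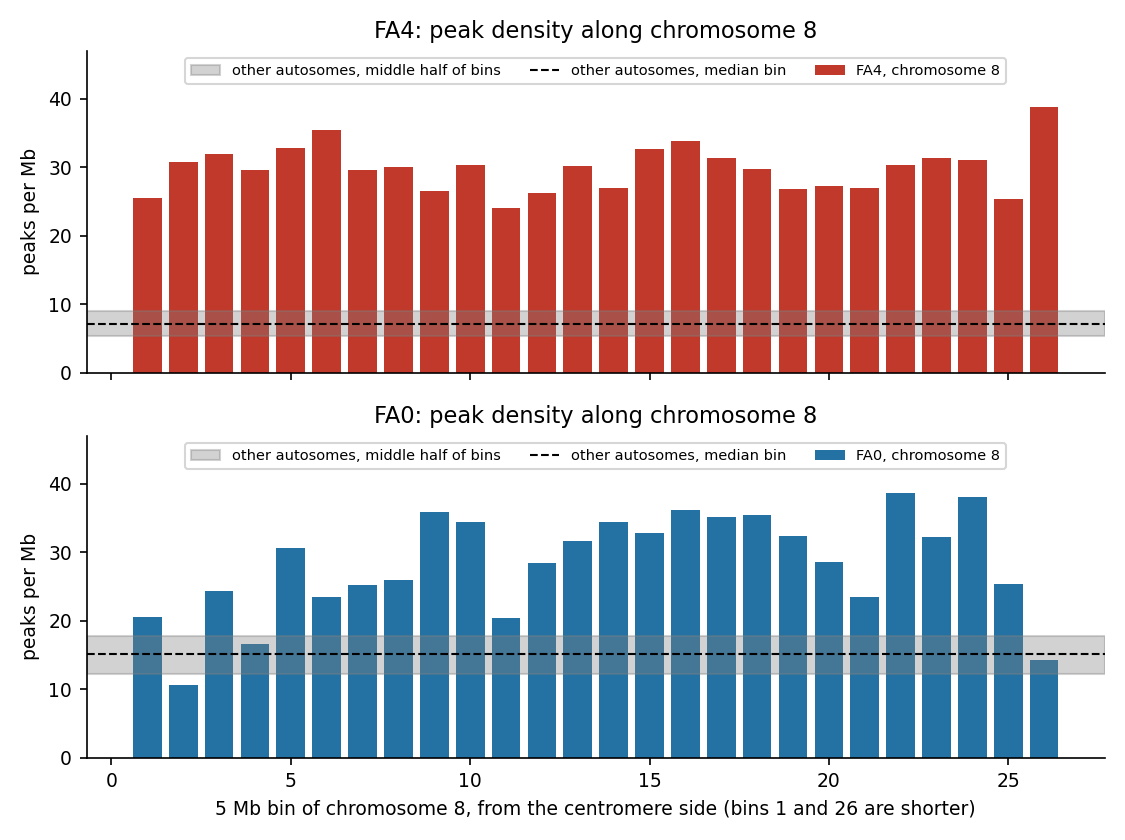
Peaks per megabase along chromosome 8 in FA4 and FA0, by 5 Mb bin from the centromere side. FA4 stays between 24.0 and 38.7, while FA0 falls to 10.6 in bin 2 and 14.2 in bin 26.

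A gain of the whole chromosome would raise its DNA by 1 factor in every bin. Peak counts need not follow by 1 factor, since each peak is called against a background. Evenness of the peaks was measured in 2 ways, and copy number was not tested. The FA4 density was the most even of any autosome, with a coefficient of variation over bins of 11.3% where the other autosomes had 17.2% to 86.4%. Counting error alone would give 8.42% at these peak numbers, and the variation beyond it was 7.51%, which was lower on chromosomes 10 (4.34%) and 13 (0.0%) only. The FA0 density had a coefficient of variation of 26.6%, inside the range of the other autosomes (16.6% to 72.3%). The FA4 to FA0 ratio was less even than the FA4 density. It ran from 1.60 at 40 to 45 Mb to 6.24 at 5 to 10 Mb, with a median of 2.11 and a coefficient of variation of 45.9%, where counting error would give 12.5%. This coefficient ranked 16th of 19 autosomes in order from the lowest, and the median of the other autosomes was 30.4%. Their counting error was larger, at 19.1% to 32.0%. The chi-square of bin by condition was 6.61 per degree of freedom, near 1 where only counting error remains. It ranked 18th of 19 autosomes from the lowest. Where bins differ it grows with the number of peaks, which was highest on chromosome 8, so its rank does not compare evenness alone.

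The ratio was highest where FA0 was sparse. At 5 to 10 Mb, with 6 coding genes the poorest bin in genes, FA0 had 53 peaks and FA4 had 154. From 125 Mb to the end FA0 had 61 and FA4 had 166, a ratio of 5.84, and at 15 to 20 Mb FA0 had 83 and FA4 had 148, a ratio of 3.83. At the low end, the ratio was 1.69 at 65 to 70 Mb, with 172 FA0 and 135 FA4 peaks, and 1.69 at 105 to 110 Mb, with 193 and 152. All 26 bins were at or above a ratio of 1.5. This value was reached by 21.2% of all autosomal 5 Mb bins. Without 5 to 10 Mb and 125 Mb to the end, the ratio of the chromosome was 2.13 and its coefficient of variation over bins 23.8%. That is below the median of 30.4% on the other autosomes. No bins were taken out of those, so these values are not like for like.

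The background behind the peaks moved with the excess. Dividing the tag count plus 1 by the deposited fold and taking off 1 gives the background against which each peak was called. It took 1 common value at most peaks of a list, 1.86 tags in FA4 and 2.12 in FA0. A peak was counted as having a raised background where its value lay more than 1% above the common one. In FA4 84.6% of the chromosome 8 peaks had a raised background, against 29.4% on the other autosomes, and every bin, at 72.9% to 90.9%, lay above 50.9%, the 95th percentile of the other bins. In FA0 the share was 51.2% against 33.7%, and it was lowest in the sparse bins, at 20.8% from 5 to 10 Mb and 14.8% from 125 Mb to the end. The rise was small in tags and larger in FA4 than in FA0. The median background on chromosome 8 was 2.16 tags in each condition, where the common value was 1.86 in FA4 and 2.12 in FA0.

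Split by background, the FA4 density stood above the other autosomes among the peaks with a raised one, and the FA0 density stood above them in both classes. Among peaks with a raised background the relative density was 11.96 in FA4, from 3191 peaks, and 3.20 in FA0, from 1846. Among peaks at the common background it was 0.840 (0.776 to 0.909) in FA4, from 583 peaks, and 1.37 (1.31 to 1.43) in FA0, from 1756. At the common background the FA4 to FA0 ratio of the chromosome was 0.669, below 1. With the background raised along the whole chromosome in FA4, few of its peaks could remain at the common value, so this split is not independent of the excess. The background is part of the calling of each peak and was taken to come from the input, which the headers do not state, and its part in the excess was not tested.

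**Figure D3:**
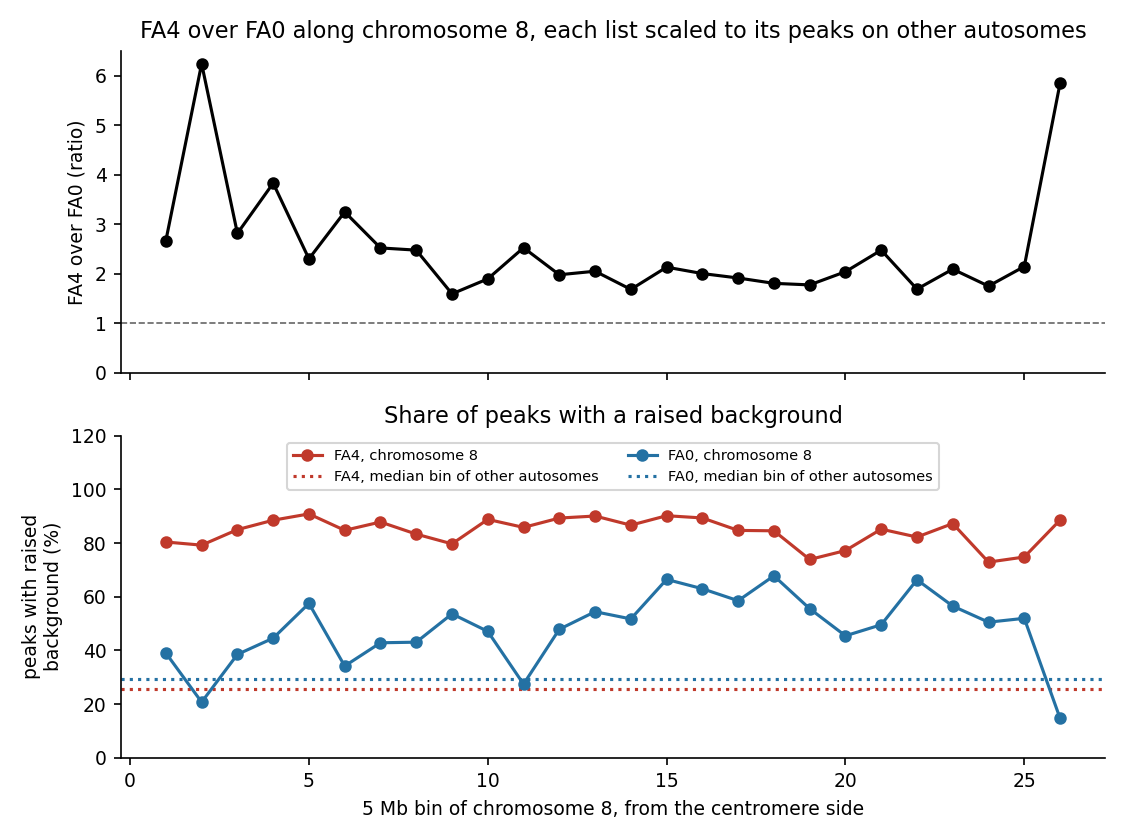
FA4 to FA0 ratio by 5 Mb bin of chromosome 8, each list scaled to its peaks on the other autosomes, and share of peaks with a raised background in each condition. The ratio is 6.24 in bin 2 and 5.84 in bin 26, where the FA0 share with a raised background drops to 20.8% and 14.8% and the FA4 share stays at 79.2% and 88.6%.

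Chromosome 8 peaks were slightly wider than those elsewhere and no taller at the median. The median peak held 8 tags in FA4 and in FA0, as on the other autosomes. Its width was 301 bases in FA4 and 295 in FA0, where the other autosomes reached at most 288 and 289. The median distance between neighbouring peaks was 22.8 kb in FA4, where other autosomes had 57.9 to 219.8 kb, and 22.5 kb in FA0, where they had 28.5 to 46.9 kb. Peaks with a q of at most 0.05 numbered 202 in FA4, 5.35%, where the other autosomes had 2.495% to 7.99%, and 143 in FA0, 3.97%, where they had 1.48% to 4.90%.

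The share of autosomal peaks on chromosome 8 changed with the tag count. In FA4 it was 9.45% among peaks of 6 tags, 14.8% at 7, 19.2% at 8, 23.9% at 9 and 28.2% at 10 to 12, then 20.4% at 13 to 19 and 26.01% at 20 or more. In FA0 it went from 6.96% at 6 tags to 11.5% at 10 to 12, was 10.2% at 13 to 19 and reached 21.8% at 20 or more. The tallest class was small, with 58 FA4 and 72 FA0 peaks on the chromosome, and all of them had a raised background.

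**Figure D4:**
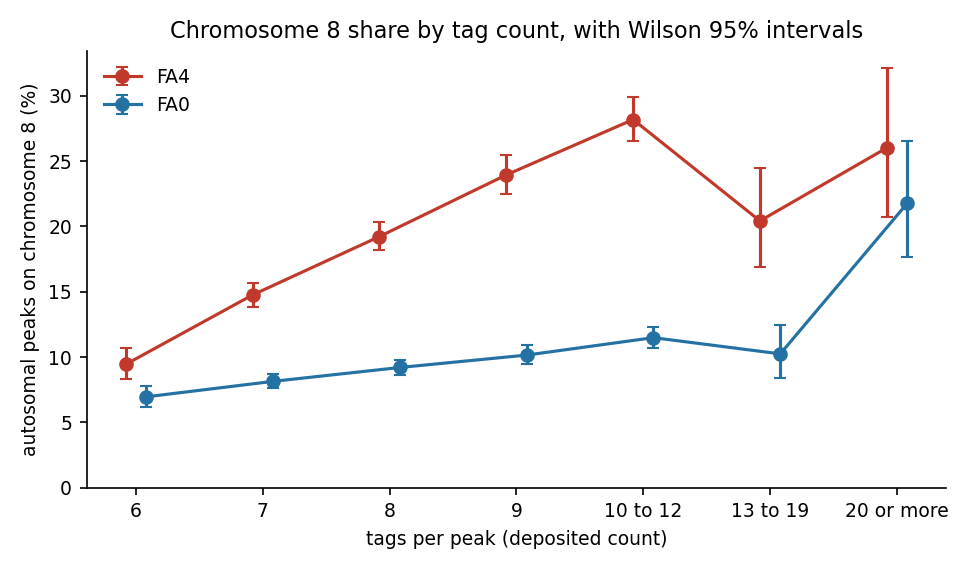
Share of autosomal peaks that lie on chromosome 8, by tags per peak, in FA4 and FA0, with Wilson 95% intervals. In FA4 the share rises from 9.45% at 6 tags to 28.2% at 10 to 12 tags, and in FA0 from 6.96% to 11.5%.

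The features under the peaks differed from those of other autosomes by a few percentage points at most. By the authors' classes, introns held 30.5% of the chromosome 8 peaks in FA4 and 32.2% in FA0, against 29.3% and 33.4% elsewhere. Intergenic sequence held 52.3% and 50.1%, against 54.0% and 47.4%, and in FA0 the Wilson 95% intervals, 48.5% to 51.7% and 46.8% to 47.9%, did not meet. Upstream sequence held 13.1% and 13.5%, against 12.6% and 14.9%. Promoters held 2.99% and 3.39%, against 3.11% and 3.17%, and exons 1.09% and 0.861%, against 0.955% and 1.18%. RefSeq coding genes took up 40.7% of the chromosome and held 40.3% of its FA4 peaks and 41.7% of its FA0 peaks, against 40.1% and 43.6% elsewhere. Across the 26 bins, FA4 density and coding genes per megabase had an r of 0.01 and a rho of 0.12. FA0 density and coding genes per megabase had an r of 0.29 and a rho of 0.36.

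The peaks of the cell conditions rarely fell on the same sequence. Of the FA4 peaks 154, or 4.08%, overlapped an FA0 peak by at least 1 base, where the other autosomes had 2.00% to 5.74%. Of the FA0 peaks 4.25% overlapped an FA4 peak, where the other autosomes had 0.779% to 2.64%, but FA4 peaks covered 1.01% of chromosome 8 and 0.087% to 0.338% of the others. Divided by the percent of sequence that the other list covers, the overlap on chromosome 8 was the lowest of the autosomes in each direction, at 4.34 for FA4 peaks (4.42 to 12.1 elsewhere) and 4.19 for FA0 peaks (4.44 to 12.1). Among peaks with a q of at most 0.05 the shared part was 15 of 202 in FA4 and 17 of 143 in FA0.

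Of the 5 shared peaks that ranked highest by fold, the tallest lay at chr8:83756751-83756987, upstream of Adgre5, which encodes an adhesion receptor of blood cells. It held 462 tags in FA4 at a fold of 54.2 and 851 tags in FA0 at a fold of 53.0, on a background of 7.54 tags in FA4. At chr8:27073448-27074027, upstream of Adgra2, a receptor needed for blood vessels to enter the developing brain, the peak held 16 tags in FA4 at a fold of 5.90 and 12 tags in FA0 at a fold of 4.17. Dlgap2, a postsynaptic scaffold gene, had a shared intronic peak at chr8:14306765-14307358 with 76 tags in FA4 and 81 in FA0, at folds of 3.71 and 3.88 on a background of 19.8 tags in FA4. A peak 393991 bases from the start of Gpm6a, a neuronal membrane glycoprotein gene, held 39 and 46 tags at folds of 3.62 and 4.71. The peak assigned to Lncbate1, inside Zfhx3 at chr8:108388953-108389234, held 12 tags in FA4, and the FA0 peak that touched its end, at chr8:108389232-108389681, held 10 and had a q of 0.176.

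Among peaks of 1 condition alone, the highest folds in FA4 were 6.99 near 1700018B08Rik with 19 tags, 6.34 near B930018H19Rik with 19 tags, 5.59 each at Kcnn1, a potassium channel gene, and near Tmem221 with 15 tags, and 5.24 near 4933433F19Rik with 14 tags. In FA0, among others, the peak at the promoter of Drc7, a gene of the ciliary dynein regulatory complex, had a fold of 5.07 with 15 tags. A peak inside the insulin receptor gene Insr followed at 4.81 with 14 tags. So did intergenic peaks assigned to Frg1 and to Acsl1, a fatty acid activating enzyme gene. All of these had a q below 0.001.

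Peaks were counted for each gene to which the authors' annotation assigned them, inside the gene or around it. Slc10a2, the ileal bile acid transporter gene, had 60 FA4 and 22 FA0 peaks, and Efnb2, which encodes the guidance ligand ephrin-B2, had 49 and 13, with none inside either gene. Both genes lie in the sparse FA0 bin at 5 to 10 Mb. Csmd1, a transmembrane gene of more than 1 Mb, had 58 FA4 and 25 FA0 peaks, and the netrin receptor gene Unc5d had 44 and 15. Equal numbers were assigned to the teneurin gene Tenm3, with 41 in each. Cdh11 had 48 and 33, the lncRNA Gm2516 had 48 and 39, the lysosomal enzyme gene Aga had 47 and 31, and the sarcoglycan gene Sgcz had 40 and 29. In FA0 the lncRNA A330008L17Rik led with 46 peaks (39 in FA4), then Cdh13 with 45 (39), and the ubiquitin ligase gene Marchf1 with 42 (28). Gm21119 had 32 FA0 and 29 FA4 peaks, and Galntl6 had 31 and 33.

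Counted inside the gene and per length, the 32 RefSeq protein-coding genes of at least 300 kb differed among themselves. FA4 had 0.850 peaks per 100 kb in Gse1 to 5.00 in Sorbs2, with a median of 3.01, and FA0 1.09 in Pard3 to 4.67 in Dlc1, with a median of 2.48. In 18 of the 32 genes FA4 stood above FA0 per 100 kb. Scaled as above, the ratio was highest in the polarity gene Pard3, at 8.59 from 24 FA4 and 6 FA0 peaks. Pard3 lies in the bin from 125 Mb to the end. Sorbs2, a cytoskeletal adaptor gene, followed at 6.87 from 16 and 5 peaks, Fam155a, in the bin from 5 to 10 Mb, at 6.75 from 22 and 7, and Unc5d at 4.72 from 22 and 10. The lowest ratio was 1.07 in Gse1, from 3 and 6 peaks, and Palld, Csgalnact1 and Nr3c2 also lay below 1.5.

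Named gene groups of the chromosome were read against all its 1043 coding genes, of which 59.8% had an assigned peak in FA0 and 59.7% in FA4. All 16 neuronal adhesion and synapse genes had a peak in each condition, and with a median length of 389 kb against 17.9 kb for all coding genes they offer more room. Per length they held 2.502 peaks per 100 kb in FA0 and 3.13 in FA4, where all coding genes held 2.92 and 2.96. Of 21 developmental regulators 16 had a peak in FA0 and 14 in FA4, led by Tox3 (29 and 28 peaks), Maf (26 and 26), Sall1 (15 and 20) and the Hedgehog binding gene Hhip (12 and 18). None of the cell lists had a peak assigned to Hand2, Foxc2, Foxf1, Nkx6-3 or Dkk4. Of 8 cadherins 7 had a peak in each, Cdh8 with 7 in FA0 and 13 in FA4 and Cdh5, of blood vessel walls, with 9 in each.

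The 5 genes of the Irx and Fto locus all had a peak in each condition. Fto, which encodes a demethylase of N6-methyladenine in RNA, had 12 FA0 and 9 FA4 peaks inside its 355 kb, or 3.38 and 2.53 per 100 kb. The homeobox gene Irx3, whose distant enhancers lie within Fto, had 12 and 13 assigned peaks, Irx6 had 8 and 8, and Rpgrip1l had 4 and 2. Of 53 defensins, small antimicrobial peptide genes, 16 had a peak in FA0 and 24 in FA4, with Defa5 at 0 and 5, Defb8 at 1 and 5, Defb7 at 3 and 5 and Defa21 at 3 and 1. Of 19 carboxylesterases 15 had a peak in FA0 and 13 in FA4, with Ces5a at 9 and 2 and Ces1d, Ces1f and Ces1g at 2 or 3 in each. Of 15 cell cycle, replication and DNA repair genes 10 had one in FA0 and 7 in FA4. Anapc10, an anaphase-promoting complex subunit, had 8 and 6, the glycosylase gene Neil3 4 and 5, Ing2 6 and 2 and the helicase gene Mcm5 4 and 1. Of 7 blood and red cell factors 5 and 4 had a peak, with 3 and 4 at the red cell ankyrin gene Ank1, 2 and 2 at Cbfb and 2 and 0 at Cbfa2t3. Among the 4 metallothioneins Mt4 had 2 FA0 peaks and the others had none in either condition.

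In brain the chromosome held a similar share of the peaks with and without neural tube defects. NTD replicates 1, 2 and 3 had 5.51%, 5.80% and 5.45% of their peaks on chromosome 8, and CON replicates had 6.36%, 5.25% and 6.29%. The groups overlapped, because CON replicate 2 was the lowest of all 6 and the other CON lists were the highest. The NTD mean was 5.59% ± 0.19 and the CON mean 5.97% ± 0.62 (SD, n = 3 each), a difference of -0.38 percentage points (exact permutation test, two-sided, p = 0.4, adjusted p = 0.677 over 22 chromosomes). Chromosome X, which counts in the total, held a mean of 3.88% of the NTD and 1.29% of the CON peaks. Over autosomal peaks alone the difference was -0.23 percentage points (exact permutation test, p = 0.7). The smallest p that 3 against 3 lists allow is 0.1. Of all chromosomes, 27.3% had groups that did not overlap. CON replicates 1 and 3 are the shortest lists, with 2797 and 3992 peaks, and also had the highest share of chromosome 8 peaks with a raised background, 32.0% and 26.7%, where the other 4 lists had 17.6% to 19.6%. On the other autosomes this share was 9.05% to 15.4% in the 6 brain lists. With all lists cut to an equal length the difference was 0. In that cut, peaks tied in p and fold were kept in order of chromosome name, in which chromosome 8 comes late. The share was then 3.75% in NTD replicate 3 and 3.65% in CON replicate 2, the longest lists, and 5.08% to 6.36% in the others. This setting therefore cannot show what list length does to the difference. Relative density averaged 1.12 ± 0.06 over the NTD lists and 1.19 ± 0.14 over the CON lists (SD, n = 3 each). From the densest of 19 autosomes, the chromosome ranked 2, 2 and 3 in NTD replicates 1 to 3. It ranked 1, 9 and 2 in CON replicates 1 to 3.

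Brain peaks were densest in 1 place. The bin at 20 to 25 Mb was the densest of the chromosome in all 6 lists, at 33, 41 and 38 peaks in NTD replicates 1 to 3 and 27, 43 and 40 in CON replicates 1 to 3, and most of them lay between 20 and 21 Mb. That megabase held 25, 32 and 31 peaks in the NTD replicates and 25, 33 and 36 in the CON replicates, so the groups overlapped. As a share of the chromosome 8 peaks the NTD lists averaged 8.55% ± 1.10 and the CON lists 12.6% ± 2.71 (SD, n = 3 each). The rest of the chromosome had 1.22 to 2.84 peaks per megabase. Next came 70 to 75 Mb with 105 brain peaks over the 6 lists and 15 to 20 Mb with 99, where the median bin had 12.9 per megabase and these had 21 and 19.8. The second of these bins adjoins the dense megabase. At 19.5 to 20 Mb the NTD replicates held 7, 3 and 15 peaks and the CON replicates 9, 6 and 7. Those with a raised background numbered 5, 2 and 15 in NTD and 8, 6 and 7 in CON. Between 20 and 21 Mb 91.7% to 100% of the brain peaks had a raised background, and their median tags were 13 to 16. The cell lists were also tall there, with 55 FA0 and 48 FA4 peaks at median tags of 35 and 45. RefSeq places mostly predicted genes in it (among them Gm36166, Gm21811, Gm15319, Gm40467 and Gm21119), just before the alpha-defensin genes at 21 to 22 Mb. Whether these are copies of one another, among which reads could be split, was not tested, so each position is uncertain.

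**Figure D5:**
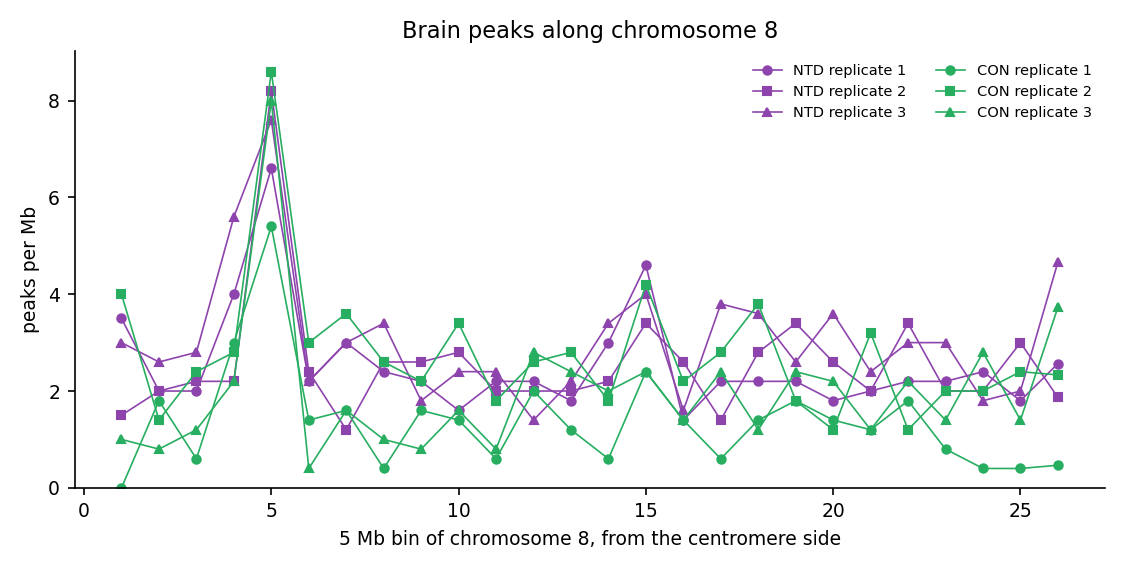
Peaks per megabase along chromosome 8 in the 6 brain lists, by 5 Mb bin from the centromere side. Bin 5, at 20 to 25 Mb, is the highest in every list, at 5.40 to 8.60 peaks per megabase.

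Other bins differed little between the brain groups. The share of all peaks of a list was higher in every NTD list than in every CON list in 3 of 26 bins, at 35 to 40, 50 to 55 and 110 to 115 Mb, and the reverse held in 2, at 55 to 60 and 60 to 65 Mb. Over the genome 10.9% of 5 Mb bins had NTD above CON without overlap and 6.42% had CON above NTD. Taken from all 6 lists, the peaks merged into 1711 regions, of which 1641 were in 1 list. The 70 regions in at least 2 lists were 4.09% of the total, against 1.50% on the other autosomes, and 36 of the 70 lay between 20 and 21 Mb. None was in all 6.

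Most of the 10 leading brain regions lay in that megabase. One assigned to Gm15319 at chr8:20330804-20331340 was in the 3 NTD lists and in CON replicates 2 and 3, at 26 to 51 tags and folds of 1.86 to 3.07. Another, at chr8:20379846-20380388, was in NTD replicates 2 and 3 and in all CON lists, at 15 to 25 tags. Gm21811 had regions in 4 lists at chr8:20114925-20115469 (3 CON, 1 NTD) and chr8:20145900-20146358 (1 CON, 3 NTD). Regions of AY761185 and Gm40467 were in 2 lists of each group, and 1 of LOC108167589 in 2 NTD lists and 1 CON list. Outside the megabase, Gpm6a had a region at chr8:55121301-55121652 in NTD replicate 3 and all CON lists, with 35 to 45 tags, and LOC108167568 had 1 in 3 lists. All of these had a raised background in every list that held them. The region upstream of Adgra2, at chr8:27073560-27073987, was in NTD replicates 1 and 2 and CON replicate 3, with 9, 9 and 13 tags at folds of 3.21, 3.19 and 3.79, and it had the common background in each. It overlaps the peak shared by FA0 and FA4 at the same place.

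No region was common to the 3 NTD lists and absent from CON, and 3 were common to the 3 CON lists and absent from NTD. Over the genome these classes held 0.0257% and 0.0514% of the regions. The 3 were near Gm36166 at chr8:20043091-20043432, near Gm40467 at chr8:20514396-20514919 and at the promoter of LOC108167568 at chr8:55349199-55349856. Their tags ran from 11 to 19, none had a q of at most 0.05, and all had a raised background in each list.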

How the data were processed

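Per the labels' protocols, sonicated DNA was pulled down with a 6mA MeDIP kit and sequenced beside a part of it set aside as input. The submitters' processing notes name Cutadapt 1.9.2, Bowtie2 2.2.4 and mm10. Which program called the peaks is not given here. Peaks were called for each immunoprecipitation, per the file headers. The deposited tag count of a peak is a whole number, not normalized, and it may be the summit height. As deposited, each p-value and q-value is on the −log10 scale, and the authors' fold is a ratio from which the background was recovered. The authors' q and fold served only to rank or filter peaks. The lists called Control and Case were taken as CON and NTD. Read totals were not used, which leaves the depth of each library unknown, and intervals cover counting error only.

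Rows were reduced to 1 per peak. Assembled length ran from 3 Mb to the last gene or peak, at 129286569 on chromosome 8. Relative density divides peaks per megabase by the median of the other 18 autosomes, and the FA4 to FA0 ratio scales each list to its peaks on those. Promoter sequences and gene positions are from RefSeq (GRCm38.p6), which matched 1170 of 1228 assigned symbols (95.3%). For brain shares the exact permutation test ran over 20 assignments, with Benjamini-Hochberg adjustment. Python 3.11.15, numpy 2.4.6, pandas 2.3.3, scipy 1.17.1 and matplotlib 3.10.9 were used, and the evenness measures were tested on simulated data. The members, the 9 gene lists and the tests were chosen with earlier results of these data known. Genes named are the leading peaks, regions and genes by fold, list number or peak number, up to 4 members of each gene list with the most cell peaks, and the bins at the extremes; a few that this rule takes are not reported here. Alternatives were other fold, q, background, bin, overlap and list-length settings, brain shares over autosomes alone, leaving out each brain list, and pairing same-numbered lists. Leaving out the bins at 5 to 10 Mb and at the distal end, or 20 to 21 Mb, was added after seeing the data.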

Additional observations from a re-analysis of the deposited data

How the results depend on the processing

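Restricted to peaks at the common background, the FA4 relative density fell from 3.88 to 0.840, the FA4 to FA0 ratio from 2.25 to 0.669 and the bins at or above 1.5 from 26 to 1, while the FA0 relative density was 1.37 and the brain difference 0.053 percentage points in place of -0.38. With a fold of at least 5 the values were 11.0 for FA4, 1.45 for FA0 and 6.21 for the ratio, from few peaks. Of the 3 bins that then kept an FA0 peak 1 reached 1.5, and the overlap was 6.67% in place of 4.08%. With a q of at most 0.05 the values were 4.70 for FA4, 3.30 for FA0 and 1.69 for the ratio. Of the 24 bins that then kept an FA0 peak 15 reached 1.5, with a variation of the ratio over bins of 125.4% in place of 45.9%. In 10 Mb bins 13 reached 1.5, which is all of them, and in 2 Mb bins 58 of 64 did, with a variation of 59.97%. Without 5 to 10 Mb and 125 Mb to the end, added after seeing the data, the ratio was 2.13 and its variation 23.8%. The overlap was 2.62% with lists of equal length and 2.81% where at least 50% of the FA4 peak had to be covered. The cause of these shifts was not tested. Leaving out chromosome 6, or setting the lists to equal length, moved the densities and the ratio by less than their intervals. The equal length was reached by cutting the FA0 list, with ties in p and fold again kept in order of chromosome name. Chromosome 8 comes late in that order, so this setting cannot show what list length does to the densities, the ratio or the overlap. The brain difference ran from -0.74 to -0.18 percentage points when each list was left out in turn, with -0.74 reached without CON replicate 2, and was -0.11 without 20 to 21 Mb and -2.74 at a q of at most 0.05 (NTD lists 3.08% to 5.08%, CON lists 2.70% to 10.6%). At that q each list kept only 2 to 7 chromosome 8 peaks. Exact p ran from 0.1, without CON replicate 2, to 1, and no setting could go below 0.1, so these p say nothing of stability. The replicate block, which pairs same-numbered lists, gave the same difference of -0.38 (exact test, p = 0.5), and the numbers are not known to pair the embryos. No value could be had for the brain share at a fold of at least 5, since CON replicate 1 has no such peak on any chromosome, or for the variation of the ratio at that fold, since few bins keep an FA0 peak. A bin of a brain list holds 0 to 43 peaks, which limits what its share can show.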
